A study of Mus musculus with 3 samples.

Results

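Stab1-type macrophages were the non-cycling macrophages of day 5 ectopic masses that carried the transcripts of *Ms4a7*, *Stab1*, *Pf4* and related genes, and they made up 6897 of the 21503 cells that passed quality filters. The members were selected on their own counts. A cell had to have a unique molecular identifier (UMI, 1 captured transcript) for at least 3 of the 6 genes *Ms4a7*, *Ccl12*, *Stab1*, *Ccl8*, *Pf4* and *Cbr2* (list A). It also had to have more of these genes than of a list led by *Retnla* (list B: *Hal*, *Ltc4s*, *Retnla*, *Fcna*, *Ednrb*, *Ifitm6*) and of a list led by *Mmp12* (list C: *Mmp12*, *Ear2*, *Dcstamp*, *Itgax*, *Ear1*, *Cd209a*). In addition, its summed UMIs of *Col1a1*, *Col1a2*, *Col3a1*, *Dcn* and *Lum* had to be below 1% of all its UMIs, and *Mki67* had to be at 0. Cells that met the same rule for list B or list C in place of list A are called Retnla-type and Mmp12-type below.

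The cells came from heterotopic ossification masses, a mouse model of acquired extraskeletal bone in which recombinant human BMP2 in a Matrigel scaffold is implanted beneath the skin of the abdomen. Female CD-1 mice, an outbred stock, were 6 to 8 weeks old. The Matrigel-only group carried Matrigel without rhBMP2 and was given nothing by mouth. The Vehicle group carried Matrigel with rhBMP2 and received corn oil with DMSO, and the Palo group carried the same implant and received Palovarotene, an agonist of the retinoic acid receptor gamma, at 4 mg/kg. Masses were harvested on day 5 and dissociated with dispase, and 1 droplet library was made per group. Vehicle and Matrigel-only differed in both rhBMP2 and the gavage, so the contributions of these 2 factors cannot be told apart. With 1 library per group there is no replicate check of any difference, no test was made, and the intervals given below (exact binomial for shares, exact Poisson for levels, both 95%) cover counting error only.

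Macrophages of connective tissue take up dying cells, matrix and iron, secrete complement components and chemokines, and present antigen on MHC class II molecules. Some are long-lived residents of the tissue and others descend from blood monocytes that enter after an injury or an implant. Those that meet interleukin 4 or 13 take on alternative activation, with chitinase-like proteins and particular chemokines, whereas interferon induces guanylate-binding proteins and CXCR3 ligands.

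The label of a tissue macrophage was checked against marker genes. In members the C1q chain gene *C1qa* was at 4644, 3881 and 5676 CPM (UMIs of the gene per 1000000 UMIs of the class; Matrigel-only, Vehicle and Palo, in this order throughout), the receptor for colony-stimulating factor 1, *Csf1r*, at 1281, 757 and 1148 CPM, and *Adgre1*, which encodes F4/80, at 816, 709 and 833 CPM. *Mrc1*, the mannose receptor, stood between 1988 and 3410 CPM. These genes place the members among macrophages. Not every marker of long residence was present, since *Timd4*, a phosphatidylserine receptor of long-lived resident macrophages, was detected in 1.71% of Matrigel-only, 1.07% of Vehicle and 1.17% of Palo members thinned to 1500 UMIs. The monocyte chemokine receptor gene *Ccr2* was at 440, 420 and 810 CPM. The markers therefore do not separate resident from monocyte-derived cells, and the cells are named here only by *Stab1*.

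The marker genes lie at unlinked places of mm10 according to the GENCODE vM21 annotation, all 4 protein-coding: *Ms4a7* (chr19:11321039-11336146, minus strand), *Stab1*, a scavenger receptor (chr14:31139013-31168641, minus strand), *Pf4*, a platelet-type CXC chemokine (chr5:90772435-90773383, plus strand) and *C1qa* (chr4:136895917-136898803, minus strand). Within list A, *Ccl12* and *Ccl8* are neighbouring chemokine genes of chromosome 11. The sequences before the starts of the list A genes are shown because these genes define the cells. GAGGAA, a core of the letters bound by PU.1, the lineage factor of macrophages, was searched on both strands of the 250 bases before the first listed RefSeq start on GRCm38.p6. It was found at 5 of the 6 list A genes and at 23.1% of all 27025 genes with such a window. *Ms4a7* held no match, which says only that these letters are not in that window. The matches begin between 8 and 240 bases before the start, and capitals mark the letters, which read TTCCTC where the match is on the opposite strand. At *Cbr2* the RefSeq start lies inside the GENCODE gene and the match falls within that gene, so its sequence is not shown. The windows of the others, each of 80 bases that lie before both the RefSeq start and the GENCODE gene and written 5′ to 3′ on the gene's strand, are chr11:82101678-82101757 (*Ccl12*, plus strand), chr14:31168642-31168721 (*Stab1*, minus strand), chr11:82114935-82115014 (*Ccl8*, plus strand) and chr5:90772355-90772434 (*Pf4*, plus strand).
Ccl12: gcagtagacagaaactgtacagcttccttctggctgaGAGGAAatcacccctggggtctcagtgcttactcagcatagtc
Stab1: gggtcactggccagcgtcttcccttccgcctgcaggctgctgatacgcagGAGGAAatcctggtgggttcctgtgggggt
Ccl8: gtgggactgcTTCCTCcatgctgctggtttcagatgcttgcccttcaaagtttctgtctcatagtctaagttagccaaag
Pf4: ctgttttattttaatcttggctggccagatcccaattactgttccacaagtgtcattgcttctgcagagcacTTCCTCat

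Each match is a description of the letters and not of a bound site. Such short letters are common, as their share over all genes shows.

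The 3 libraries held 9249 (Matrigel-only), 6065 (Vehicle) and 7905 (Palo) barcodes with 44252421, 46317250 and 46901673 UMIs over 31053 genes. Of the barcodes, 8728, 5478 and 7297 passed the filters of 200 to 6000 genes and at most 5% mitochondrial UMIs. The members were 2913, 1543 and 2441 cells in the same order, and their UMIs summed to 9355686, 6500302 and 10388254. The median member had 2904, 3781 and 3866 UMIs, so Matrigel-only members were the shallowest. Matrigel-only and Vehicle shared 19 barcodes, of which 2 were members in both, Matrigel-only and Palo 21 with 2, and Vehicle and Palo 11 with 1.

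Members formed 33.4% (32.4 to 34.4) of passing Matrigel-only cells, 28.2% (27.0 to 29.4) of Vehicle cells and 33.5% (32.4 to 34.6) of Palo cells. At full depth the Vehicle interval lay below both others. A rule that counts detected genes favours deep cells, and after every cell was thinned to 1500 UMIs the shares were 34.1% of 7596, 25.6% of 4720 and 29.6% of 6964 cells. Thinning thus kept Vehicle lowest but put Palo below Matrigel-only. A share also moves with every other cell type of the mass, and T and natural killer cells numbered 266 in Vehicle against 55 in Matrigel-only and 54 in Palo.

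Non-members were accounted for among the cells with low mesenchymal counts and no *Mki67*, which were 6135, 3846 and 5480. Of these, 2783, 2248 and 2853 had fewer than 3 list A genes, and 439, 55 and 186 had enough of them but as many or more of list B or C. A further 322, 132 and 375 cells met everything except the absence of *Mki67*, the proliferation gene used to leave out cycling cells. Vehicle members carried fewer of the defining genes. All 6 were detected in 31.7% of Matrigel-only, 25.7% of Vehicle and 30.1% of Palo members, and exactly 3 in 12.9%, 22.1% and 16.1%.

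**Figure D1:**
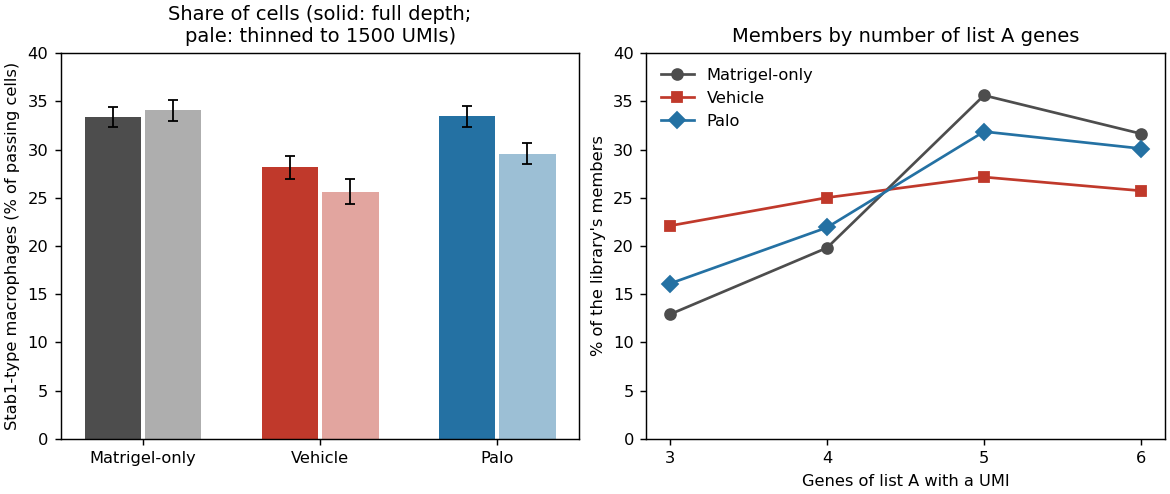
Left, the share of passing cells that were Stab1-type macrophages in each library (bars, percent; solid at full depth, pale after thinning to 1500 UMIs; error bars, exact binomial 95% intervals). Right, the percent of each library's members with 3, 4, 5 or 6 list A genes detected; Vehicle has the lowest bars on the left, and on the right its line is the flattest, from 22.1% at 3 genes to 25.7% at 6.

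The cells just outside the threshold, with 2 list A genes and otherwise eligible, numbered 234, 344 and 272. Their *C1qa* was at 2869, 2173 and 4020 CPM, and in the members just inside, with 3 genes, it was at 4221, 2912 and 4815 CPM. The threshold thus ran through a graded range of *C1qa* levels.

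Across that range the members differed among themselves. *Selenop*, which encodes the secreted selenium carrier selenoprotein P, was higher with each further list A gene, from 3672 CPM at 3 genes to 5451 at all 6 in Matrigel-only, from 1093 to 3168 in Vehicle and from 2246 to 4843 in Palo. *Folr2*, a folate receptor of resident macrophages, went from 228 CPM in cells with 2 genes to 988 in those with 6 in Matrigel-only, from 77.6 to 624 in Vehicle and from 194 to 893 in Palo. *Igf1*, a growth factor, followed with 132 to 503, 26.2 to 306 and 56.0 to 313 CPM. *H2-Aa* and *Ccr2* ran the other way. *H2-Aa*, an MHC class II alpha chain, was at 8967 CPM in Matrigel-only cells with 2 genes and at 1718 in those with 6, at 3464 and 1607 in Vehicle, and at 9084 and 2084 in Palo. *Ccr2* went from 1033 to 302, from 910 to 265 and from 1340 to 610 CPM. Members with all 6 list A genes thus had more *Selenop*, *Folr2* and *Igf1* and less *H2-Aa* and *Ccr2* than members with 3 in all 3 libraries. Deeper cells have more detected genes, and the median depth was 2025 UMIs at 2 genes and 3508 at 6 in Matrigel-only, 2701.5 and 5016 in Vehicle, and 3126.5 and 4396 in Palo, and the part of depth in the order was not tested.

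**Figure D2:**
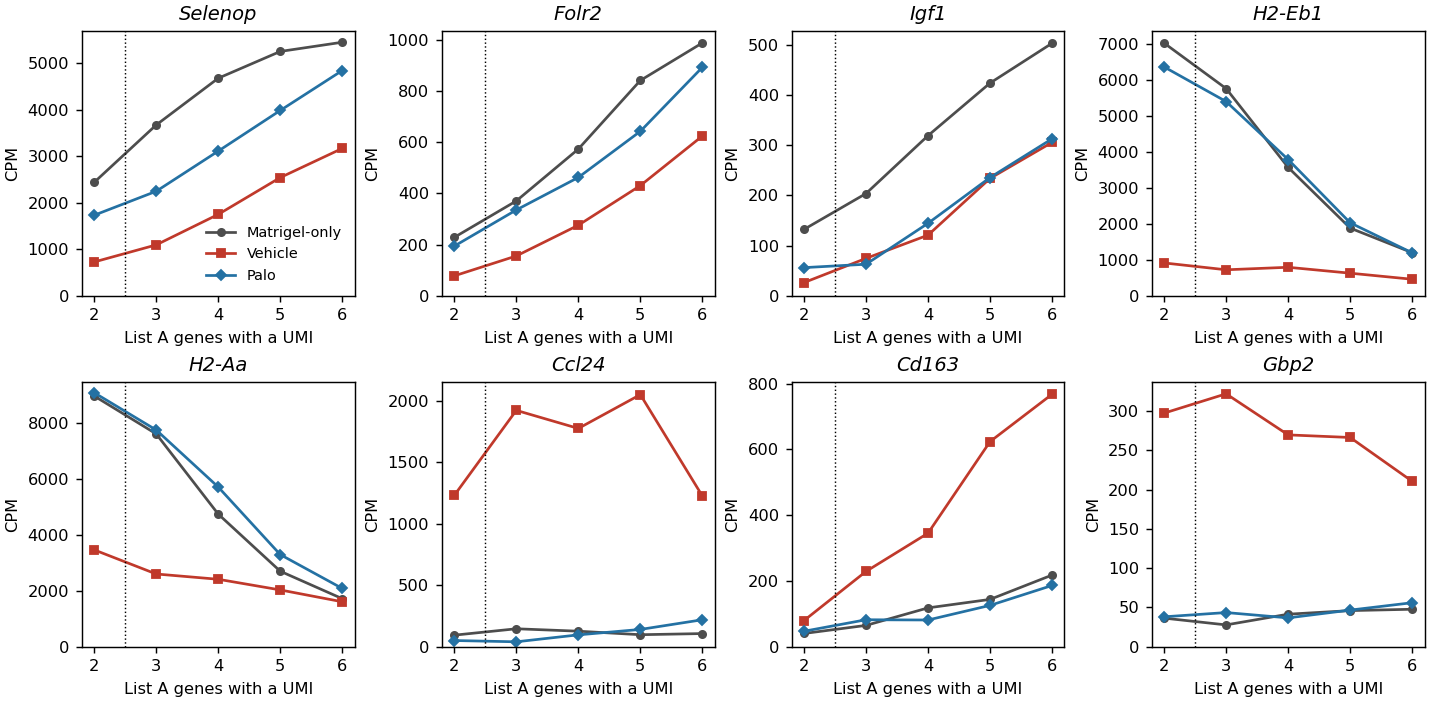
CPM of 8 genes (one panel each, linear axes from 0) against the number of list A genes detected in the cell, with a line for each library; the dotted line marks the threshold, with non-members at 2 on its left. *Selenop*, *Folr2* and *Igf1* lines climb and *H2-Aa* lines descend in all 3 libraries, while *Ccl24* is at 1225 CPM or more at every number in Vehicle and at most 219 CPM in the other libraries.

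Stab1-type macrophages were then set beside the Retnla-type and Mmp12-type cells of the same library. The rule chose the classes by their own counts, so these differences are a description, and the 18 rule genes were left out of the counts. A gene was past the fold where its ratio of CPM + 5 was at least 2-fold (1 on the log2 scale) in the same direction in all 3 libraries, among genes with at least 20 CPM in a class of each library. Against Mmp12-type cells (510, 237 and 751), 349 of 5831 genes were higher in members (5.99%) and 243 lower (4.17%). With median-of-ratios scaling these were 281 and 294, so more genes were then lower than higher.

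The growth arrest ligand *Gas6*, which bridges dying cells to macrophage receptors, was at 938, 397 and 575 CPM in the members of Matrigel-only, Vehicle and Palo and at 7.84, 7.16 and 3.38 CPM in Mmp12-type cells. *Selenop*, at 5093, 2343 and 3878 CPM in members, was at 112, 56.8 and 139 CPM in Mmp12-type cells. *Folr2*, the ribonuclease *Rnase4*, the monocyte chemokine *Ccl7*, the transcription factor *Maf*, the lectin *Cd209f* and *Igf1* completed the 8 largest differences. All 9 measured genes of tissue residence were higher in members, with a median log2 ratio of 4.83, as were 9 of 11 complement genes (median 3.0) and 8 of 12 interferon-response genes measured (median 1.76). All 7 MHC class II genes were lower in members, with a median of -1.98. The median over all genes tested was 0.12. Among the largest lower genes, *Lpl*, lipoprotein lipase, was at 102, 83.1 and 176 CPM in members and at 2208, 2319 and 2099 CPM in Mmp12-type cells, and the coagulation factors *F10* and *F7*, *Cd24a*, *Hr*, *Bcam*, *Klrb1b* and *Tnip3* were lower as well.

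Fewer genes set the members apart from Retnla-type macrophages (629, 40 and 445 cells), with 54 of 5726 higher (0.943%) and 84 lower (1.47%). The 40 Vehicle cells of that type gave only 173123 UMIs, and without the Vehicle library the counts were 99 and 150. The acute-phase gene *Saa3* was at 40.6, 30.8 and 126 CPM in members and at 323, 341 and 1588 CPM in Retnla-type cells. The lysozyme gene *Lyz1*, whose reads may be shared with its paralog *Lyz2*, was at 197, 113 and 417 against 2511, 832 and 2261 CPM. *Crip1*, *Cd5l*, *Hopx*, *Ms4a8a*, *Adgre5* and *Unc119* were lower too. The integrin chain *Itgb5* was higher in members, at 98.6, 125 and 150 CPM against 25.8, 28.9 and 33.9 CPM, and the tetraspanin *Cd63* at 427, 549 and 480 against 129, 144 and 133 CPM. *Fads1*, *Fchsd2*, *Gpr183*, *Clec4n*, *Tmem8* and *Ccnd1* were the others. Of the tissue residence genes 1 of 10 was higher (*Igf1*) and 1 lower (*Timd4*), and no MHC class II gene of 7 was past the fold.

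**Figure D3:**
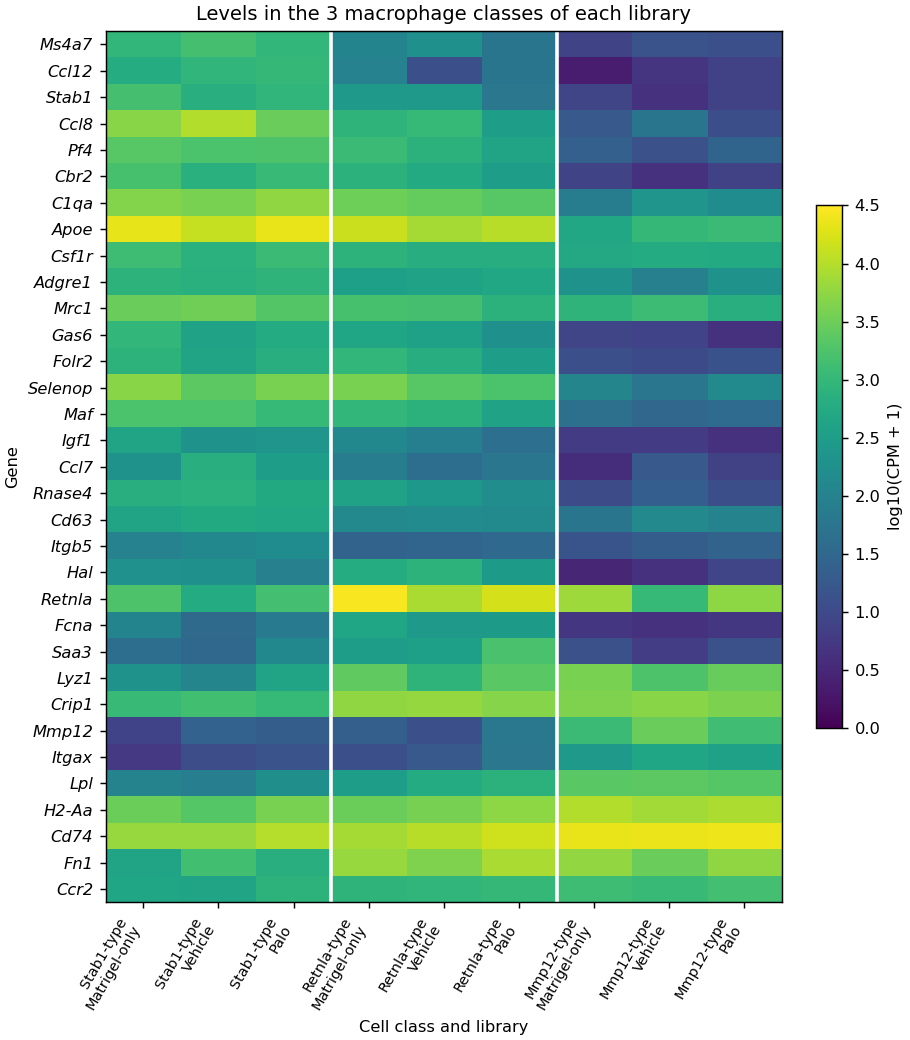
Levels of 33 genes (rows) in the 3 macrophage classes of each library (columns), as log10(CPM + 1) on a colour scale from dark (0) to yellow (4.5). *Gas6*, *Folr2*, *Selenop* and *Igf1* are brighter in the Stab1-type than in the Mmp12-type column of each library, and *Lpl* is brighter in the Mmp12-type column.

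Vehicle over Matrigel-only addressed what the members looked like in an implant with rhBMP2. Of 6502 genes with at least 20 CPM in either library, 200 were past the fold higher in Vehicle (3.08%) and 100 lower (1.54%), and the median log2 ratio was -0.02. Palo over Vehicle shares the Vehicle library with it, so the 2 comparisons are not independent and levels are given for all 3 libraries side by side.

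Several of the genes highest in Vehicle belonged to alternative activation. The eosinophil-attracting chemokine *Ccl24* (chr5:135569937-135573049, minus strand) was at 110 CPM (104 to 117) in Matrigel-only members, at 1691 (1660 to 1723) in those of Vehicle and at 146 (139 to 153) in those of Palo. Vehicle stood 15.4-fold (14.4 to 16.4) above Matrigel-only, and the other libraries lay close together. *Chil3* (chr3:106147554-106167564, minus strand), a chitinase-like protein of alternatively activated macrophages and of monocytes, was at 0.214 CPM (2 UMIs), 164 and 2.60 CPM. The interval of its ratio of Vehicle over Matrigel-only ran from 212 to 6343. Since the Matrigel-only level lay below that of 3 UMIs, no exact fold is read from it. With CPM + 5 the log2 ratio was 5.02, and it ran from 4.12 to 7.09 over the alternatives. *Rnase2a*, an eosinophil-type ribonuclease, was at 20.1, 437 and 12.9 CPM, *Pdcd1lg2*, which encodes PD-L2, at 0.534, 62.8 and 0.481 CPM, and the fatty acid-binding protein *Fabp5* at 250, 2693 and 351 CPM. *Msx3* (1.5, 78.9 and 0.0963 CPM) and *Serpina3g* (3.31, 74.6 and 0.866 CPM) were also among the largest differences. For each of these genes Vehicle stood far above both other libraries.

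In droplet data free RNA can place UMIs in any cell, so T and natural killer cells, which should lack these genes, were read as background. Among cells thinned to 1500 UMIs, *Ccl24* was detected in 11.5% of Matrigel-only, 28.3% (26.0 to 30.8) of Vehicle and 9.24% of Palo members, beside 2.06% of 194 Vehicle T and natural killer cells. *Rnase2a* was detected in 1.89%, 20.2% and 1.0% of members against 0.515% of the same Vehicle cells. Both Vehicle shares were thus above background. The median depths of members and of the background cells were 3781 and 2118 UMIs in Vehicle before thinning. Members held 58.7% of all *Ccl24* UMIs of passing Vehicle cells, 70.8% of those of *Rnase2a* and 64.2% of those of *Chil3*. They held 40.7% of the *Pdcd1lg2* and 37.7% of the *Fabp5* UMIs, so most UMIs of these last genes lay in other Vehicle cells.

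Of 11 measured alternative-activation genes, 5 were higher in Vehicle, among them *Chil3*, *Pdcd1lg2*, *Ccl24* and *Tgfbi*, and 1 lower (*Clec10a*), with a median of 0.45. *Retnla*, a classical gene of the same program, was at 1779, 580 and 1406 CPM. It belongs to the rule's own list B, which helped to choose the cells, so its level is given without further reading. The mannose receptor *Mrc1* was at 2961, 3410 and 1988 CPM, within 2-fold. The galactose lectin *Clec10a* was at 1174, 403 and 365 CPM. With *Retnla* left aside, the program was uneven in Vehicle, with *Ccl24* and *Chil3* high and these lectin genes flat or low. *Pdcd1lg2* is shown because it was nearly absent outside Vehicle and its upstream window held TTC and GAA with any 4 bases between them, the spaced letters associated with STAT6. Searched on both strands, this motif was in 1 of 3 alternative-activation genes past the fold with a window and in 5.87% of all genes. The capitals mark it 82 bases before the start at chr19:29410802-29410881, plus strand.
Pdcd1lg2: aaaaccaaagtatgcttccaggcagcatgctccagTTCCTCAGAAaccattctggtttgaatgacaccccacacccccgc

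**Figure D4:**
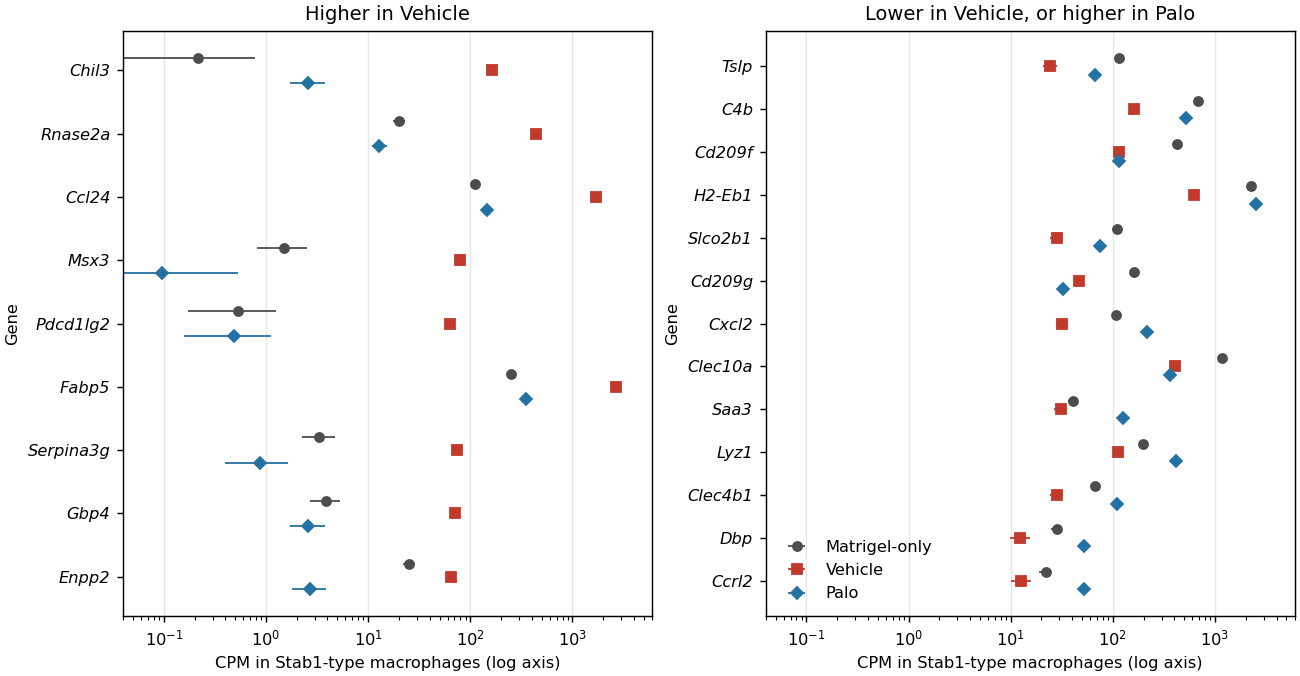
CPM in Stab1-type macrophages (log axis) of genes named as higher in Vehicle (left) and of genes lower in Vehicle or higher in Palo (right); points are the 3 libraries and horizontal bars exact Poisson 95% intervals, cut at the edge of the axis. For *Ccl24*, Vehicle lies at 1691 CPM, with Matrigel-only at 110 and Palo at 146 CPM, and the same arrangement holds for the other genes on the left except *Enpp2*, where Matrigel-only lies nearer Vehicle.

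Within Vehicle the *Ccl24*-positive members were compared with the rest at 1500 UMIs (396 with and 1003 without a *Ccl24* UMI). *Chil3* was detected in 15.4% (12.0 to 19.3) of those with and in 1.10% (0.549 to 1.95) of those without *Ccl24*. *Folr2* was detected in 28.3% of *Ccl24*-positive and 44.3% of *Ccl24*-negative members. *Chil3* was thus detected more often, and *Folr2* less often, beside *Ccl24* in Vehicle. *Folr2* went the other way in Matrigel-only, where 67.1% (61.5 to 72.4) of *Ccl24*-positive and 59.5% (57.5 to 61.5) of *Ccl24*-negative members had it, and in Palo, with 61.5% (54.8 to 68.0) and 52.4% (50.3 to 54.6). *Chil3* was in 0 of 304 *Ccl24*-positive members of Matrigel-only (upper bound 1.21%) and in 1 of 221 of Palo. In Vehicle *Gbp2*-positive members (338) had *Ccl24* in 28.1% and *Gbp2*-negative members (1061) in 28.4%, intervals of 23.4 to 33.2 and 25.7 to 31.2 that overlap. *Lyve1*, a hyaluronan receptor of perivascular macrophages, was detected in 77 members of Vehicle, of which 80.5% had *Folr2*, against 37.4% of the 1322 without *Lyve1*. Cells of 1 library are not replicates, and these shares describe each library only.

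C1q transcripts were low in some Vehicle members. A *C1qa* UMI was absent from 239 Vehicle members (15.5%, 13.7 to 17.4), against 49 in Matrigel-only (1.68%) and 34 in Palo (1.39%). In these 239 cells *C1qb* was at 95.7 CPM against 3581 in the Vehicle members with *C1qa*, and *Apoe*, an apolipoprotein abundant in tissue macrophages, at 4190 against 14183 CPM, so both were low together with *C1qa*. Other macrophage genes were present, with *Cd68*, a lysosomal glycoprotein, at 483 against 525 CPM and *Mrc1* at 4510 against 3229 CPM. *Csf1r*, at 569 against 788 CPM, and *Adgre1*, at 423 against 756.5 CPM, were present at lower levels. *Ccl24* was at 5545 against 1056 CPM, *Fabp5* at 7930 against 1830, *Chil3* at 649 against 84.0 and *Cd163*, the haemoglobin scavenger receptor, at 1300 against 423 CPM. Of the defining genes, *Stab1* was at 300 against 715 CPM and *Ccl8* at 10878 against 9444. The granulocyte gene *S100a8* was at 97.9 against 7.35 CPM, and its part in the result was not tested. When only members with a *C1qa* UMI were kept, a choice made after the data were seen, Vehicle over Matrigel-only gave 179 genes higher and 84 lower, and *Ccl24* stood at 1056 CPM in Vehicle.

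Interferon-response genes were higher in Vehicle, 8 of 16 measured past the fold and 0 lower, with a median log2 ratio of 0.96. The guanylate-binding protein *Gbp2* was at 44.3, 258 and 47.6 CPM in Matrigel-only, Vehicle and Palo, and the ubiquitin-like modifier *Isg15* at 72.7, 218 and 78.2 CPM. The CXCR3 ligand *Cxcl9* was at 0.321, 31.8 and 0.0963 CPM, the Matrigel-only value resting on 3 UMIs, and *Cxcl10*, from the chemokine list, at 6.73, 79.2 and 11.7 CPM. *Ifit2*, *Usp18*, *Ifi204* and *Ifi209* were also past the fold. T and natural killer cells of Vehicle had *Gbp2* at 170 CPM, so in that library the transcript was not particular to the members.

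*Isg15* is shown because the letters GAAA repeated with any 2 bases between, which resemble the interferon-stimulated response element, occurred in its upstream window. Searched on both strands, the motif was in 2 of 5 interferon genes past the fold with a window (*Isg15* and *Gbp2*) and in 3.04% of all genes. *Isg15* had 3 overlapping matches, the nearest beginning 66 bases before the start (chr4:156200840-156200919, minus strand), and *Gbp2* had 1 at 59 bases on the opposite strand. The *Gbp2* match lies within the GENCODE gene, whose start is upstream of the RefSeq one, and its sequence is not shown.
Isg15: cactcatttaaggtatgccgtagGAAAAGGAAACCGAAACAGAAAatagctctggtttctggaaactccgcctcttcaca

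Tissue residence genes leaned lower in Vehicle. Of 9 measured, 4 were past the fold lower (*Lyve1*, *F13a1*, *Gas6* and *Selenop*) and 1 higher (*Cd163*), with a median of -0.99. *Selenop* was at 5093, 2343 and 3878 CPM, *Gas6* at 938, 397 and 575 CPM, the coagulation factor subunit *F13a1* at 2863, 1230 and 1824 CPM and *Lyve1* at 165, 64.3 and 137 CPM. For all 4, Palo lay between the other libraries. *Cd163* went the other way, at 161, 547 and 132 CPM. Of the rule's own genes, *Stab1* was at 1467, 656 and 921 CPM, *Cbr2* at 1519, 717 and 1116 CPM and *Ccl8*, a monocyte chemokine, at 4969, 9646 and 2993 CPM. Since these genes chose the cells, their levels are given without further reading.

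Complement genes split. *C4b* was at 674, 163 and 517 CPM, 4.14-fold (3.88 to 4.43) lower in Vehicle than in Matrigel-only, while *C3*, the central component, was higher in Vehicle at 24.7, 143 and 32.1 CPM. Thus 2 of 11 were lower and 1 higher, with a median of -0.45. Among MHC class II genes only 1 of 7 was past the fold. *H2-Eb1* (chr17:34305867-34316674, plus strand) was at 2238, 621 and 2537 CPM, whereas *H2-Aa* was at 3092, 2064 and 3947, *H2-Ab1* at 2552, 2319 and 3844, and the invariant chain *Cd74* at 6419, 6368 and 9786 CPM. In Mmp12-type cells *H2-Eb1* was also lowest in Vehicle, at 8251, 2482 and 5450 CPM, so the low level in that library was not particular to the members. The other genes of the largest lower in Vehicle were the cytokine *Tslp* (114, 24.5 and 66.5 CPM), the lectins *Cd209f* (426, 114 and 115 CPM) and *Cd209g* (159, 47.1 and 32.3 CPM), the organic anion transporter *Slco2b1* (111, 28.3 and 75.5 CPM), the neutrophil chemokine *Cxcl2* (107, 32 and 216 CPM) and *Clec10a*.

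Glycolysis genes were higher in Vehicle, 8 of 15 past the fold and 0 lower, with a median of 1.01, and the hypoxia-response list had 4 of 16 higher with a median of 0.82. The glucose transporter *Slc2a1* was at 33.8, 99.8 and 11.7 CPM, phosphoglycerate kinase *Pgk1* at 389, 882 and 430, and the angiogenic factor *Vegfa* at 18.5, 52.2 and 6.74 CPM. *Eno1*, whose counts may be split with the near-identical copy *Eno1b*, was at 40.5, 173 and 139 CPM. Genes of the respiratory chain stayed within 2-fold, 0 of 15 past it either way, with a median of 0.16. *Pgk1* is shown as an example of ACGTG, the core letters of the hypoxia-response element, which on both strands were in 4 of the 8 glycolysis genes past the fold, in 1 of the 3 hypoxia-response genes past the fold with a window (*Egln3*) and in 16.6% of all genes. Its 2 matches begin 150 and 131 bases before the start (chrX:106186931-106187010, plus strand).
Pgk1: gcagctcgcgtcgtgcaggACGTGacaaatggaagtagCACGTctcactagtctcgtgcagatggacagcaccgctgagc

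Lipid-handling genes had 4 of 12 higher in Vehicle and 0 lower (median 0.39), among them *Lgals3*, galectin 3, at 225, 1103 and 393 CPM, with *Fabp5*, *Fabp4* and the nuclear receptor *Nr1h3*. Matrix remodelling genes had 5 of 11 higher (median 0.85), including the membrane-bound metalloproteinase *Mmp14* at 10.7, 157 and 19.9 CPM and *Tgm2*, a transglutaminase, at 5.45, 98.0 and 12.2 CPM. In Vehicle mesenchymal cells *Mmp14* was at 814 CPM, and the part of free RNA in the member value was not tested. Monocyte genes had 4 of 6 higher (*Ly6c2*, *Chil3*, *Vcan* and *Fn1*, median 1.58), with fibronectin, *Fn1*, at 423, 1373 and 650 CPM beside 10252 CPM in Vehicle mesenchymal cells. Of these lists, monocyte genes had the largest share past the fold. Inflammatory cytokine genes had 3 of 8 higher, with *Il1b* at 26.4, 118 and 20.7 CPM. Growth factor genes had 3 of 9 higher, *Vegfa*, *Osm* and *Spp1*. Genes of BMP and TGF-beta signalling had 2 of 8 higher, *Pmepa1*, an inhibitor of TGF-beta signalling, at 32.4, 164 and 52.5 CPM and *Smad7*. The remaining lists moved in both directions, downwards or within 2-fold. Chemokines had 3 of 10 higher and 1 lower, and receptors that clear dying cells 3 of 13 higher and 2 lower. Early-response genes had 2 of 16 lower, *Egr1* and *Nr4a1*, with a median of -0.33. None of the 12 general macrophage genes, 19 lysosomal genes and 12 cytokine receptor genes was past the fold in Vehicle over Matrigel-only, nor was any of 9 heat-shock and 8 prostaglandin genes. The interleukin 4 receptor chain *Il4ra* was at 676, 925 and 498 CPM.

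**Figure D5:**
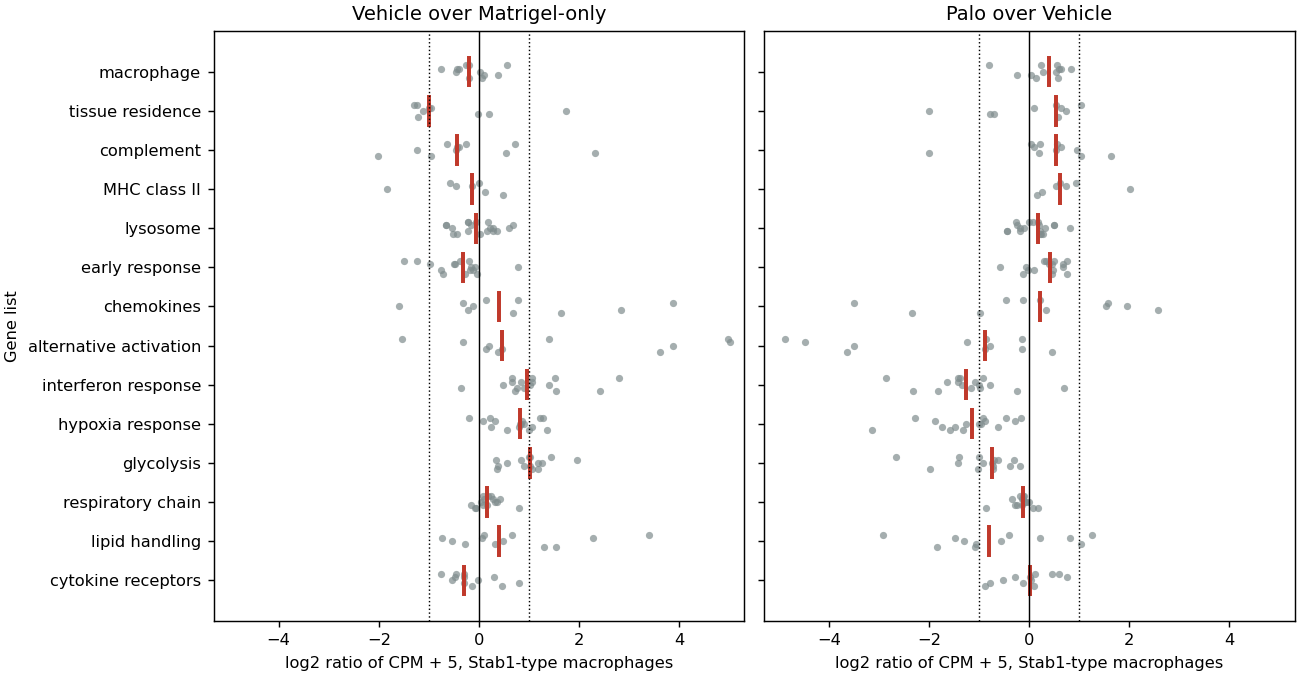
Log2 ratios of CPM + 5 in Stab1-type macrophages for the measured genes of 14 lists (points, 1 per gene) with the list median (red bar), for Vehicle over Matrigel-only (left) and Palo over Vehicle (right); dotted lines mark 2-fold. Glycolysis and interferon-response medians lie at 1.01 and 0.96 on the left and at -0.75 and -1.25 on the right, and the respiratory chain median lies at 0.16 and -0.13.

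Palo over Vehicle addressed what oral Palovarotene changed in members of rhBMP2 implants. Of 6343 genes, 77 were higher in Palo (1.21%) and 237 lower (3.74%), with a median of -0.14. TMM factors, which centre the bulk of genes, gave 113 higher and 186 lower, so the excess of lower genes was smaller under that scaling, 37.8% of the past-fold genes being higher against 24.5%. *Ccl24* was 11.6-fold (11 to 12.3) lower and *Rnase2a* 33.9-fold (28.5 to 40.6) lower. *Msx3*, *Pdcd1lg2*, *Chil3*, the interferon-induced *Gbp4* (3.85, 71.2 and 2.60 CPM) and the lysophospholipase *Enpp2* (25.2, 64.9 and 2.70 CPM) were among the largest as well. Of the interferon list 11 of 16 were lower and 0 higher (median -1.25), of hypoxia genes 9 of 16 (median -1.14), of glycolysis genes 5 of 15 (median -0.75) and of alternative-activation genes 5 of 11 (median -0.89). *Slc2a1* and *Vegfa* were lower in Palo than in either other library.

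Genes higher in Palo than in Vehicle were led by *Cxcl2*, *H2-Eb1*, *Saa3* and *Lyz1*, with the lectin *Clec4b1* (66.1, 28.2 and 110 CPM), the clock gene *Dbp*, the chemokine receptor-like *Ccrl2* and *C4b*, which was 3.18-fold (2.98 to 3.40) higher. *Saa3* and *Lyz1* were also higher in Palo than in Vehicle in Retnla-type cells, so their rise was not particular to the members. Retnla-type cells numbered 40 in Vehicle and 445 in Palo, and the part of their free RNA in the member values was not tested. The chemokines *Ccl3* (39.3, 30.2 and 99.2 CPM), *Ccl4* (39.4, 36.0 and 114 CPM) and *Cxcl1* moved with *Cxcl2*, so that 4 of 11 chemokines were higher and 2 lower. The prostaglandin genes *Hpgds*, a prostaglandin D synthase, and *Hpgd*, which degrades prostaglandins, were 2 of 9 higher. Lipid-handling genes had 2 of 12 higher, *Trem2* and *Lpl*, and 6 lower. Of tissue residence genes 1 was higher (*Lyve1*) and 1 lower (*Cd163*) of 9, and of complement genes 2 of 11 were higher (*C4b* and *C5ar1*) and 1 lower (*C3*). No lysosomal, general macrophage, cytokine receptor or respiratory chain gene was past the fold.

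Palovarotene acts on retinoic acid receptors, and the retinoid genes were therefore read separately. The list had 5 measured genes, of which 2 were lower in Palo than in Vehicle (*Rara* and *Tgm2*) and 0 higher (median -0.11). *Tgm2* changed most, with a log2 ratio of -2.58, and it was at 3.30 in Vehicle over Matrigel-only. In Palo over Matrigel-only 0 of 4 were past the fold. The receptor gene *Rara* was at 47.9, 72.5 and 26.4 CPM. The retinoid-inducible genes *Rarb* (0.534, 0.462 and 0.674 CPM) and *Cyp26a1* (0.428, 0.154 and 0.481 CPM) were near the level of 3 UMIs in every library (0.321, 0.462 and 0.289 CPM), so a difference in them was not detectable at this depth. *Dhrs3*, a retinal reductase, was at 245, 213 and 315 CPM.

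The Palo and Matrigel-only groups differed in rhBMP2, in the gavage and in the drug. Palo over Matrigel-only had 53 of 6294 genes higher (0.842%) and 57 lower (0.906%) at a median of -0.16, and 78 and 33 with TMM factors. The lipid receptor *Trem2* (143, 227 and 552 CPM), osteopontin, *Spp1* (4.49, 73.4 and 68.4 CPM), and the inhibitory receptor *Lair1* (13.4, 80.2 and 72.4 CPM) were among the higher genes, with *Ubb*, *Cd52*, *Bcl2a1b*, *Eno1* and *Pianp*, and *Cd209g*, *Cd209d* (123, 147 and 27.1 CPM), *Cd209f*, *Clec10a*, *Mgl2* (283, 225 and 91.8 CPM), *Plk2*, *Tmem2* and *Pde4b* among the lower. *Trem2* was detected in 18.7%, 24.5% and 51.8% of thinned members, so it was highest in Palo.

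Transcripts of other cell types were measured in the members. Summed over the 12 mesenchymal markers they were at 315, 393 and 228 CPM, led by *Sparc*. Cartilage markers were at 5.56, 57.2 and 4.24 CPM over 8 genes, with *Col2a1* at 16.6 CPM in Vehicle and at 0 in the other libraries. Endothelial markers were at 9.19, 60 and 7.41 CPM, with *Pecam1* at 45.5 CPM in Vehicle, which monocytes also express. Both sets were thus highest in Vehicle. Basophil and mast cell markers were at 1.07, 30.8 and 0.963 CPM, led in Vehicle by *Mcpt8* (17.1 CPM), which was at 0 elsewhere. Granulocyte markers were at 48.5, 121 and 51.4 CPM, nearly all from *Csf3r* in Matrigel-only and Palo, and *Ngp* was at 0 in every library. Without *Csf3r* the granulocyte list was at 35.5 CPM in Vehicle and at most 4.33 CPM elsewhere, so it too was highest in Vehicle. Haemoglobin and other erythroid transcripts, led by *Hbb-bs*, were at 91.4, 415 and 217 CPM. T and natural killer markers (3.96, 12.5 and 3.85 CPM), smooth muscle and pericyte markers (5.67, 24.5 and 11.4 CPM, led by *Acta2*), conventional dendritic cell markers (17.0, 21.1 and 16 CPM, led by *Cadm1*) and B and plasmacytoid cell markers (203, 101 and 167 CPM, led by *Ighm*) were low beside the macrophage genes, and adipocyte markers summed to at most 1.08 CPM. Vehicle members thus held the most transcripts of other types in 10 of the 11 lists, B and plasmacytoid cell markers being the exception, and their part in the Vehicle differences was not tested. With genes left out where mesenchymal cells stood more than 5-fold above the members, 163 genes were higher in Vehicle than in Matrigel-only and 94 lower.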

How the data were processed

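Single cells of 3 libraries, 1 per group, were measured by droplet RNA sequencing. The authors deposited UMI counts per barcode and gene, not normalized, and their processing notes name Cell Ranger 3.0.2, Seurat 3 and mm10. Depth was 44252421 (Matrigel-only), 46317250 (Vehicle) and 46901673 UMIs (Palo).

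Members were found from the deposited counts by the rule given above, and their UMIs were summed per library and scaled to CPM. Ratios used CPM + 5 and genes with at least 20 CPM in a group compared, and 2-fold was the limit for naming a gene higher or lower. Such ratios understate the change of low genes. No doublet caller was run, and cells with 2 or more markers of another type were left out as an alternative. Named genes were the rule genes, the 8 largest ratios in each direction with at least 50 CPM (leaving out ribosomal, mitochondrial and haemoglobin genes, gene models and genes far higher in mesenchymal cells) and the most abundant or most changed genes of 38 gene lists; genes given for cells without *C1qa*, cells with *Ccl24* and numbers of list A genes were chosen after values were seen. Members and lists were chosen with earlier results of these data known. Beside the main setting, 13 alternatives were set beforehand and 1 was added after the data were seen. For the class comparisons, leaving out each library in turn was also set beforehand. Thinning drew 1500 UMIs per cell with a fixed seed, and shallower cells were left out. Tables were handled in pandas 2.3.3 and numpy 2.4.6 under Python 3.11.15, intervals came from scipy 1.17.1 and plots from matplotlib 3.10.9. TMM factors, and no test, were taken from edgeR 4.0.16 in R 4.3.3. The scripts were tested on simulated data. Upstream windows and gene starts are from RefSeq on GRCm38.p6 and gene positions from GENCODE vM21. Some genes are not reported here.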

Additional observations from a re-analysis of the deposited data

Results flagged for a closer look

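Flagged here are 2 genes in which the members and the Mmp12-type cells of the same libraries went opposite ways, each by at least 2-fold. Other genes, such as *Lpl* for Palo over Vehicle, also differed in direction but changed less in Mmp12-type cells. No such difference was tested because each group had 1 library. For Palo over Vehicle the log2 ratio of the chemokine *Ccl4* was 1.54 in Stab1-type macrophages (114 against 36.0 CPM) and -2.21 in Mmp12-type cells (50.5 against 251 CPM). For Vehicle over Matrigel-only the ratio of fibronectin, *Fn1*, was 1.69 in Stab1-type macrophages (1373 against 423 CPM) and -1.01 in Mmp12-type cells (2961 against 5962 CPM).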

How the results depend on the processing

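The settings were 13 alternatives set beforehand and 1 added, and for the class comparisons also each library left out in turn. None of the 8 genes with the largest ratios in each direction of a comparison changed sign, and the other named genes were not rerun. The list medians kept their sign in all 21 lists for Vehicle over Matrigel-only, and changed it in some setting in 2 of 21 for Palo over Vehicle, 5 for Palo over Matrigel-only, 6 against Mmp12-type and 11 against Retnla-type cells. Among these, the chemokine median over Retnla-type cells ran from -1.18 to 1.02, that of clearance receptors for Palo over Matrigel-only from -0.36 to 0.37, and that of alternative activation over Mmp12-type cells from -0.09 to 0.96. Among counts of genes past the fold, 137 values stayed within 1.5 times the main count and 15 moved, and the cause was not tested unless the setting itself removes genes or cells. With at least 4 list A genes, members over Retnla-type cells gave 34 higher and 50 lower, and the member shares were 29.1% (Matrigel-only), 21.9% (Vehicle) and 28.1% (Palo). Requiring 50 CPM, which leaves fewer genes, gave 53 lower for that class comparison, 152 lower against Mmp12-type cells, 131 higher and 65 lower for Vehicle over Matrigel-only, 49 and 154 for Palo over Vehicle, and 31 and 27 for Palo over Matrigel-only. For the last comparison the lower genes were 33 with TMM and 30 with median-of-ratios factors, which bring the median of all genes near 0. Leaving out a library gave 67 to 99 genes higher and 96 to 150 lower over Retnla-type cells, the highest without Vehicle and, for higher genes, 91 without Matrigel-only. Against Mmp12-type cells these ranges were 372 to 465 and 263 to 304. Keeping *Mki67*-positive cells gave shares of 37.1%, 30.6% and 38.6%. Leaving out cells with markers of other types gave 32.1% in Matrigel-only and 31.9% in Palo. After thinning the shares were 25.6% in Vehicle and 29.6% in Palo, and with *C1qa*-positive members only 23.8% in Vehicle. For Palo over Vehicle, 39.0% of the past-fold genes were higher with median-of-ratios factors against 24.5%, and for Palo over Matrigel-only 72.0% against 48.2%. No paired analysis was possible because each group had 1 library. Depth limits genes near 3 UMIs, which correspond to 0.321, 0.462 and 0.289 CPM in Matrigel-only, Vehicle and Palo.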
